A study of Mus musculus with 6 samples.

Results

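The orphan nuclear receptor gene Nr6a1 was followed together with 9 genes of the pluripotency and de novo DNA methylation programme that it is known or proposed to repress: Pou5f1, Nanog, Sall4, Zfp42, Utf1, L1td1, Dnmt3a, Dnmt3b and Tdgf1. The 10 genes were chosen by name, and each matched exactly 1 of the 54134 genes in the count table. RNA came from the tailbud, the tissue caudal to the last somite, of C57BL/6 mouse embryos at embryonic stage E10.5, with 1 library per embryo. In 2 Cdx2P:Nr6a1 embryos the coding sequence of the long Nr6a1 isoform was driven by the Cdx2 promoter, which is active in the posterior embryo and so maintains Nr6a1 in the tailbud after the endogenous gene is normally shut off. The 4 wildtype embryos did not carry the transgene. The transgenics were transient, made by injection into the pronucleus, so each is its own integration event and no stable line stands behind them. Both groups carried an intact endogenous Nr6a1 gene.

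Nr6a1, also called GCNF, binds the motif AGGTCA, classically as a direct repeat without a spacer, and recruits corepressors and DNA methyltransferases. In differentiating embryonic stem cells and the gastrulating embryo it silences Pou5f1, which encodes the pluripotency factor Oct4. The tailbud at E10.5 is long past that stage, although it still holds axial progenitors that build the trunk and tail.

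Library totals lay between 44073460 and 67183802 counts. Levels are given as CPM, the counts per 1000000 of the library size after TMM scaling. All 8 tailbud markers, among them T, Tbx6 and Wnt3a, passed the count filter, with a summed level of 2316 to 2568 CPM in wildtype and 2312 to 2637 in Cdx2P:Nr6a1 libraries. Wildtype replicate 1 had the highest erythroid level, with 6 erythroid genes summing to 20269 CPM. The other wildtype libraries had 8289 to 15507 CPM and the Cdx2P:Nr6a1 libraries 9972 to 13860. In bulk tissue, fewer cells of a type and less RNA per cell cannot be told apart.

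Nr6a1 was the gene that rose. It reached 23.2 and 33.8 CPM in Cdx2P:Nr6a1 replicates 1 and 2, against 3.94, 5.16, 5.52 and 6.90 CPM in wildtype replicates 1 to 4. Every transgenic library lay far above every wildtype library, and replicate 2 carried more Nr6a1 than replicate 1. The counts behind these levels were 192 to 310 in wildtype and 1031 and 2268 in Cdx2P:Nr6a1. The fitted difference was 5.31-fold (log2 2.41, SE 0.20, 95% interval 3.88 to 7.28-fold, adjusted p = 0.00132, edgeR quasi-likelihood test). Ordered from the highest log2 difference, Nr6a1 was number 3 of the 203 genes called at an adjusted p under 0.05, which were 1.59% of the 12733 genes tested. Of those 203, 100 were higher and 103 lower in Cdx2P:Nr6a1. With either transgenic library left out the total fell to 61 genes, and without wildtype replicate 4 to 134, and Nr6a1 was called in each case.

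The count does not tell transgenic from endogenous transcripts. The authors counted reads over 10824 exon bases of Nr6a1 at chr2:38723370-38927688 (mm10, minus strand), of which the coding sequence of the transcript Nr6a1-202 takes 1485 bases, or 13.7%. In that transcript 4457 bases follow the stop codon, and the transgene was built from the coding sequence. The 3′UTR is where microRNAs that restrain Nr6a1 would pair, so their mature sequences (RefSeq, GRCm38.p6) are shown with the seed, bases 2 to 8, in capitals. The miR-196 pair lies within the Hox clusters and shares 1 seed, as does the miR-10 pair, and let-7 is the family that Lin28 proteins hold back.
mmu-miR-196a-5p: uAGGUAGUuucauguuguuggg
mmu-miR-196b-5p: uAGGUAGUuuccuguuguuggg
mmu-miR-10a-5p: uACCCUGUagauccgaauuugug
mmu-miR-10b-5p: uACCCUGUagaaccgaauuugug
mmu-let-7a-5p: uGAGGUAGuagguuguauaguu

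The coding sequence held 0 matches to any of these seeds. After the stop codon there were 4 matches for miR-196, 8 for let-7a and 2 for miR-10. Of 2471 genes with a 3′UTR within 1.5 times this length, 17.5% held at least 1 miR-196 match, 22.7% a let-7a match and 32.9% a miR-10 match. A match is a run of letters and was not tested as a functional site. The miR-196 matches (ACTACCT, in capitals) begin 370, 1227, 3826 and 4362 bases after the stop codon, in this order:
site 1: ttgacaaagacaACTACCTcaatg
site 2: aaggggcattaaACTACCTcatgt
site 3: gggggaaaaaagACTACCTcttga
site 4: ttctgtgaattgACTACCTgtgga
The first 3 of them run on into a let-7a match (CTACCTC) that overlaps by all but 1 base, whereas the last is for miR-196 alone.

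**Figure D1:**
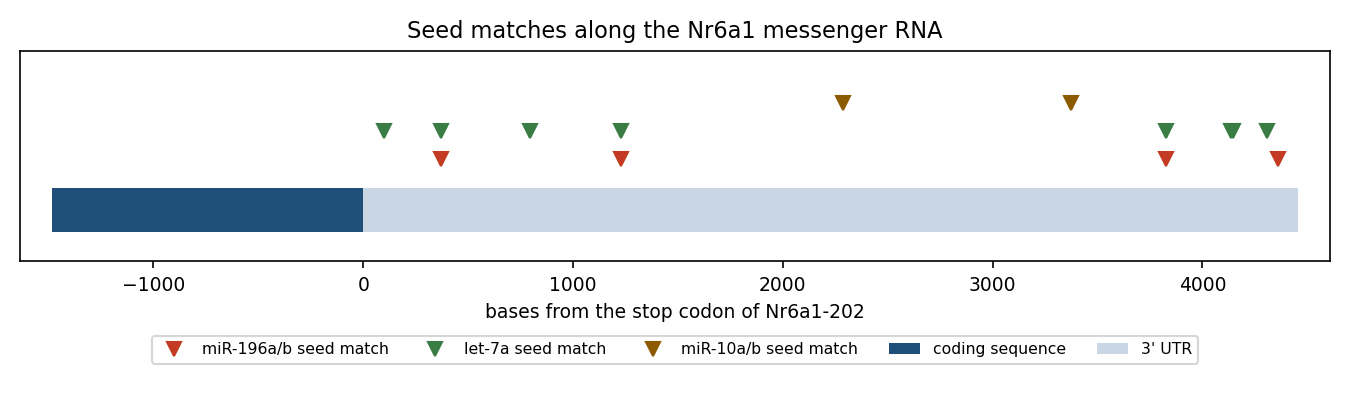
Map of the coding sequence (dark bar) and the 3′UTR (light bar) of Nr6a1-202, drawn to scale in bases from the stop codon, with triangles at seed matches. All 4 miR-196, 8 let-7a and 2 miR-10 matches lie in the 3′UTR and 0 in the coding sequence.

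The genes next to Nr6a1 were not called. The antisense gene Nr6a1os, transcribed within the Nr6a1 locus, had 22 to 51 counts per library and stood at 0.624 ± 0.104 CPM (SD, n = 4) in wildtype and 0.522 and 1.15 CPM in Cdx2P:Nr6a1, so the groups overlapped. Its exons share no base with those of Nr6a1. The closest tested genes on either side, Psmb7, Nek6, Olfml2a and Rpl35, had log2 differences of -0.041, -0.0049, 0.28 and -0.028 with adjusted p of 0.878, 0.989, 0.588 and 0.916 (edgeR quasi-likelihood test). Among all genes tested, the log2 CPM of E430018J23Rik, Pak1, Slc35g1, Prom1 and Gm28876 followed that of Nr6a1 most closely over the 6 libraries, with Pearson r of 0.999, 0.996, 0.994, 0.994 and 0.991. These values describe 6 libraries that share the difference between groups and were picked as the highest of 12733. Their own fold changes were small (log2 0.18, 0.13, 0.38, 0.15 and 0.70) and did not pass the test, with adjusted p from 0.0547 for Slc35g1 to 0.502 for E430018J23Rik. Slc35g1 was called by the likelihood ratio test, DESeq2, the fit with no filter and the replicate block (adjusted p 0.00138 to 0.0360). Gm28876 was called by the likelihood ratio test and with no filter (adjusted p 0.00687 and 0.0277). Gm28876 passed the filter only through the Cdx2P:Nr6a1 libraries, where it was high (2.48 and 2.58 CPM against at most 1.62 in wildtype). Its place among the tested genes thus rested on the group difference itself, and its fit without either of those libraries was not made.

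None of the 9 other genes was called in either direction. Together with Nr6a1, 5 of the 10 genes cleared the filter, which asked that 2 or more libraries exceed both 10 counts and 2 CPM, and 1 was called. The remaining 5, Pou5f1, Nanog, Zfp42, Utf1 and Tdgf1, lay under it and are given by their counts. They lie in mm10 at chr17:35506018-35510772, chr6:122707489-122714633, chr8:43295063-43306980, chr7:139943789-139945112 and chr9:110939603-110946158, and all counts are over annotated exons.

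**Figure D2:**
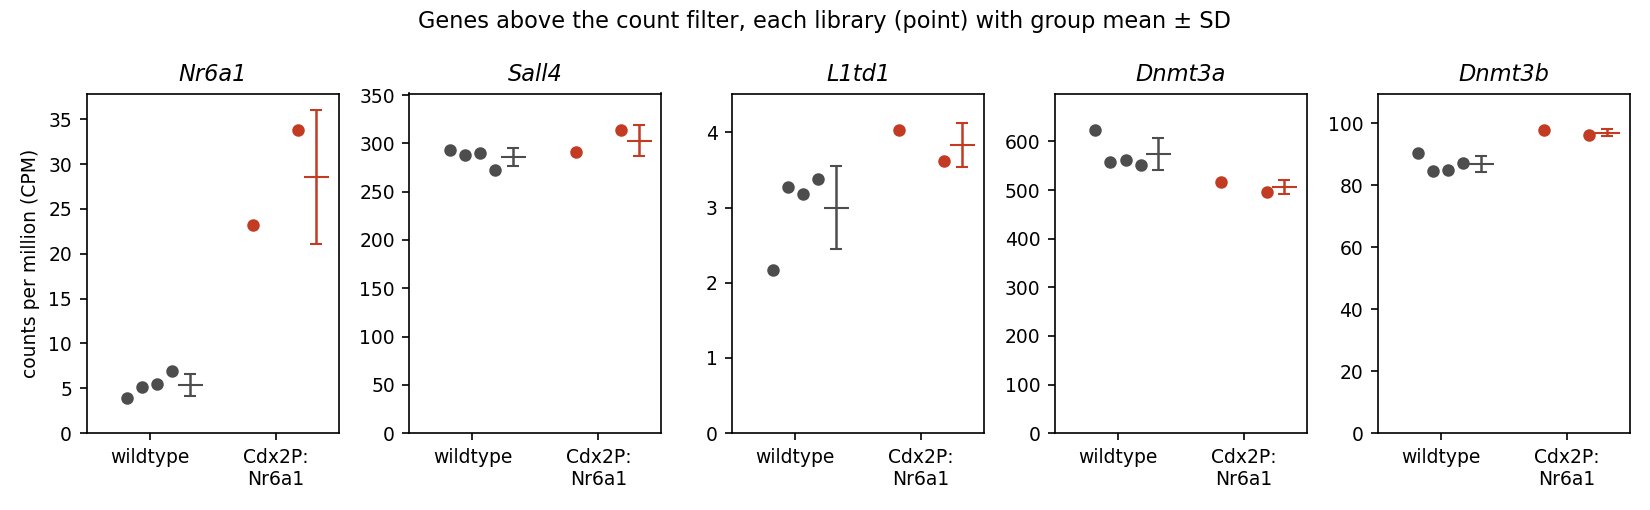
Level in CPM (vertical axes from 0) of the 5 genes that passed the filter, with 1 point per library and the group mean ± SD beside it (4 wildtype, 2 Cdx2P:Nr6a1). Nr6a1 separates widely, Dnmt3a lies lower and Dnmt3b and L1td1 higher without overlap, and the Sall4 groups overlap.

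Pou5f1 encodes Oct4 and is the best known target of Nr6a1 repression, so its start site is shown. The RefSeq promoter sequence (GRCm38.p6) runs from 250 bases before to 50 after the start, and AGGTCA was searched on both strands. Of 32851 such windows, 16.3% held the motif. It was found in 4 of the 14 windows listed for 9 of the 10 genes: 1 each of Pou5f1, Nanog, Dnmt3a and Nr6a1 itself. The stretches around the matches follow 5′ to 3′ on the gene's strand, with the motif or its reverse complement in capitals. They lie at chr17:35505959-35506031 (+) for Pou5f1, chr6:122707239-122707286 (+) for Nanog, chr12:3891628-3891713 (+) for an internal start of Dnmt3a and chr2:38784516-38784646 (-) for the internal start of Nr6a1.
Pou5f1: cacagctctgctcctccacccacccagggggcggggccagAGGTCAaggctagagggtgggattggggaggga
Nanog: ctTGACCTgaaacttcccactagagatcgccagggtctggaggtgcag
Dnmt3a: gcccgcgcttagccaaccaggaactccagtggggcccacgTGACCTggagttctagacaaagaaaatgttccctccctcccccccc
Nr6a1: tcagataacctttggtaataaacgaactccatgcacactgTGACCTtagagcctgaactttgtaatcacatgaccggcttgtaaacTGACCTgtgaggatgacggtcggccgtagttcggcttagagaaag

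The Pou5f1 match begins 33 bases before the start, the Dnmt3a match 76 and the Nanog match 248. Nr6a1 holds 2, at 91 and 45 bases before its internal start, a number reached by 1.81% of all windows. The other windows, those of Zfp42, Utf1, L1td1, Dnmt3b and Tdgf1 among them, do not hold these letters, and Sall4 was not scanned. A match says nothing of binding in these embryos, and the counts below were not selected by it.

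Pou5f1 was scarcely transcribed, and it was higher, not lower, with the transgene. Wildtype replicates 1 to 4 had 5, 10, 13 and 9 counts, or 0.103, 0.179, 0.232 and 0.200 CPM. Cdx2P:Nr6a1 replicates 1 and 2 had 22 and 17 counts, or 0.496 and 0.253 CPM. Both transgenic libraries lay above all wildtype libraries, the second one narrowly: its exact Poisson 95% interval, 0.148 to 0.406 CPM, reached below 3 of the 4 wildtype values. Among the 19846 genes under the filter with at least 1 count, 7.38% lay higher in this way without overlap. Pooled over libraries, the ratio was 1.94 (exact 95% interval 1.21 to 3.14, counting error only). That interval takes no account of the spread between embryos. In a fit that kept every gene, log2 was 1.01 (SE 0.47) and the adjusted p was 0.460 (unadjusted 0.0300, edgeR quasi-likelihood test), so the difference was not called. Without Cdx2P:Nr6a1 replicate 1 the pooled log2 ratio was 0.49, with an interval from -0.43 to 1.36. The Nr6a1-richer replicate 2 had the lower Pou5f1 level of the 2 transgenic libraries. Of the Pou5f1 exon bases, 14.1% lie opposite exons of Gm19553, which had 0 CPM in every library.

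Pou5f1 is also expressed in primordial germ cells, which migrate near the hindgut at this stage. Of 10 germ cell markers 5 passed the filter and 0 were called, with a summed level of 89.9 to 97.8 CPM in wildtype and 95.5 to 102.9 in Cdx2P:Nr6a1. Kit (mean 30.6 CPM in wildtype) and Alpl (43.3) made up most of that sum. Dppa3 and Prdm14 had at most 3 counts in any library. Nanos3, in contrast, lay at 1.43 to 1.94 CPM in wildtype and at 1.15 and 1.42 in Cdx2P:Nr6a1. Dnd1 lay at 2.43 to 2.89 CPM in wildtype and at 2.92 and 3.45 in Cdx2P:Nr6a1, and Ddx4 at 0.375 to 0.608 and at 0.507 and 0.563. The part of such cells in the Pou5f1 level was not tested.

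Nanog and Zfp42 also encode factors of the naive pluripotent state. Nanog had 57, 43, 53 and 36 counts in wildtype (1.17, 0.768, 0.947 and 0.801 CPM) and 58 and 44 in Cdx2P:Nr6a1 (1.31 and 0.656 CPM). Its transgenic libraries fell on either side of all 4 wildtype values. The pooled ratio was 0.996 (exact 95% interval 0.775 to 1.27), and on the log2 scale it moved from -0.49 without Cdx2P:Nr6a1 replicate 1 to 0.51 without replicate 2. Zfp42, known as Rex1, had 6, 3, 8 and 7 counts in wildtype and 13 and 8 in Cdx2P:Nr6a1. The groups overlapped in CPM, with 0.0536 to 0.156 against 0.293 and 0.119, and the pooled ratio was 1.61 (0.855 to 3.03).

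Utf1, a chromatin-associated factor of undifferentiated cells, had 11, 6, 10 and 5 counts in wildtype and 5 and 12 in Cdx2P:Nr6a1, with a pooled ratio of 0.980 (0.511 to 1.82). Tdgf1, which encodes the Nodal co-receptor Cripto, had 1, 2, 0 and 0 counts in wildtype and 1 and 3 in Cdx2P:Nr6a1. No Tdgf1 library exceeded 3 counts, the floor set for detection (0.0447 to 0.0676 CPM by library), so no fold is given. Without the filter, adjusted p for Nanog, Zfp42, Utf1 and Tdgf1 was 0.976, 0.878, 0.993 and 0.880 (edgeR quasi-likelihood test). None of the 4 was called. The intervals of Zfp42 and Utf1 leave room for changes of over 1.5-fold.

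**Figure D3:**
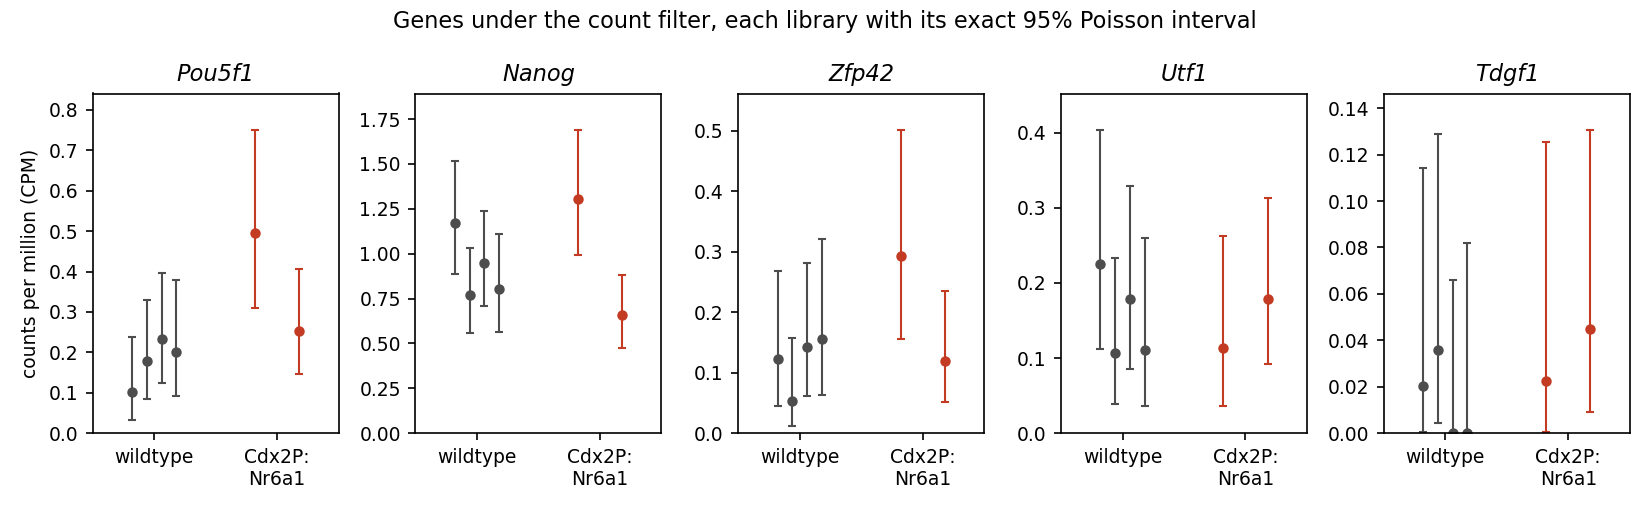
Level in CPM (vertical axes from 0) of the 5 genes under the filter, 1 point per library with its exact 95% Poisson interval (counting error only). Pou5f1 is higher in both Cdx2P:Nr6a1 libraries (0.496 and 0.253 CPM), and the groups overlap for Nanog, Zfp42, Utf1 and Tdgf1.

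Sall4 and L1td1 were the pluripotency genes with enough counts to test. Sall4 (chr2:168748332-168767943, mm10), a zinc finger factor shared by stem cells and the tailbud, stood at 293, 288, 290 and 273 CPM in wildtype and 291 and 314 CPM in Cdx2P:Nr6a1. The groups overlapped. Its log2 difference was 0.081 (SE 0.052, 95% interval -0.036 to 0.20, adjusted p = 0.709, edgeR quasi-likelihood test), an interval that runs from 0.975 to 1.15-fold. Of its exon bases, 9.50% lie opposite exons of Gm14261. The other Sall genes were not called either, the largest difference being that of Sall2 (log2 0.13, adjusted p = 0.477).

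L1td1 (chr4:98726734-98738480, mm10), an RNA-binding protein derived from a LINE-1 element, had 2.17, 3.27, 3.18 and 3.38 CPM in wildtype and 4.03 and 3.62 CPM in Cdx2P:Nr6a1. Both transgenic libraries were above all wildtype libraries, and wildtype replicate 1 was low. The log2 difference was 0.35 (SE 0.19, 95% interval -0.074 to 0.77, adjusted p = 0.612, edgeR quasi-likelihood test). Leaving out wildtype replicate 1 brought it to 0.22.

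The 2 de novo DNA methyltransferase genes differed in opposite directions, each by little, and neither passed the test. Dnmt3a (chr12:3806007-3914443, mm10) stood at 624, 558, 561 and 552 CPM in wildtype and 516 and 497 CPM in Cdx2P:Nr6a1, lower without overlap. It was not called: log2 was -0.18 (SE 0.060, 95% interval -0.32 to -0.044, unadjusted p = 0.0151, adjusted p = 0.258, edgeR quasi-likelihood test). Dnmt3b (chr2:153649450-153687730) stood at 90.3, 84.8, 85.0 and 87.1 CPM in wildtype and 97.9 and 96.2 CPM in Cdx2P:Nr6a1, also without overlap. Its log2 difference was 0.16 (SE 0.048, 95% interval 0.052 to 0.27, unadjusted p = 0.00840, adjusted p = 0.186, same test). Wildtype replicate 1 was the highest of its group for both genes, and without it the log2 differences were -0.14 and 0.18. Groups that do not overlap were found for 18.5% of all genes tested and for 4 of these 5 (Nr6a1, L1td1, Dnmt3a and Dnmt3b).

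Per kilobase of exon, Dnmt3b amounted to 47.2, 49.5, 49.4 and 51.4% of Dnmt3a in wildtype replicates 1 to 4 and to 61.8 and 63.1% in Cdx2P:Nr6a1 replicates 1 and 2. The mean share was 49.4% ± 1.72 (SD, n = 4) and 62.5% ± 0.886 (SD, n = 2). The difference was larger than the spread within either group, and the exact permutation test gave p = 0.0667 (two-sided), the smallest that 2 against 4 libraries allow. This ratio was formed after the values of both genes had been seen. Of 14 genes of the methylation machinery 12 passed the filter and 0 were called, 10 of them lower and 2 higher, with a median log2 of -0.062 beside -0.00071 over all genes tested. Dnmt1, which maintains methylation, and its partner Uhrf1 had log2 of -0.071 and -0.057. Tet1 had -0.20 (adjusted p = 0.360) and Tet2 -0.13 (0.874), both encoding enzymes that oxidise methylcytosine. Dnmt3l, the cofactor of the de novo enzymes, was at or under 3 counts in every library.

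**Figure D4:**
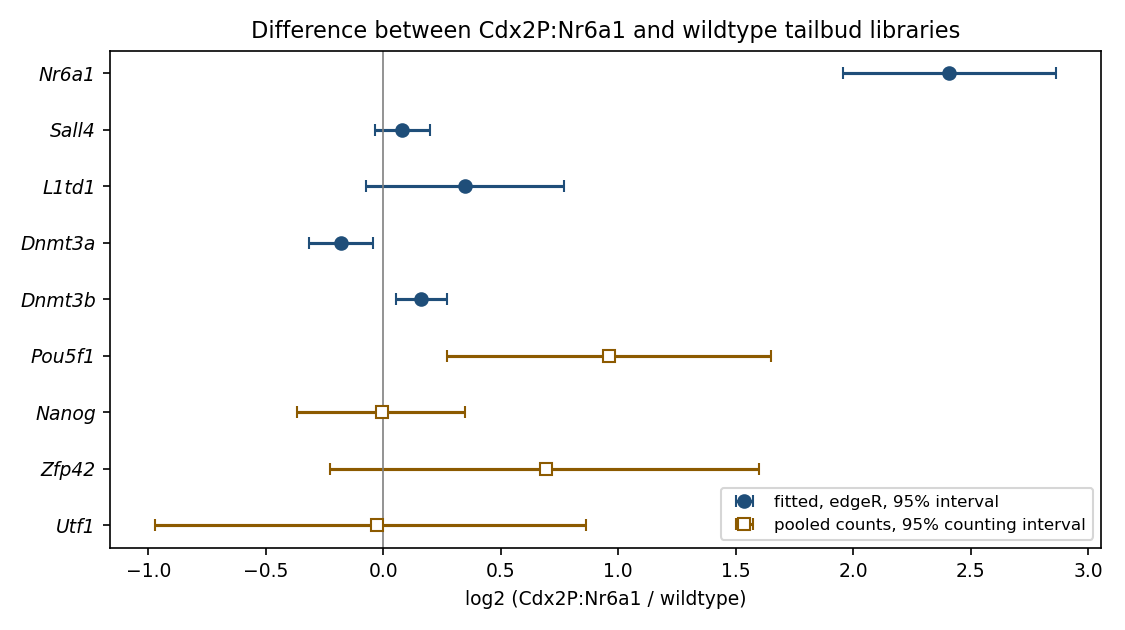
Log2 ratio of Cdx2P:Nr6a1 to wildtype for 9 genes (horizontal axis), as the edgeR estimate with its 95% interval for the 5 tested genes (filled circles) and as the ratio of pooled counts with its exact 95% counting interval for 4 low genes (open squares). Nr6a1 at 2.41 stands far from the rest, which lie between -0.18 (Dnmt3a) and 0.96 (Pou5f1). Tdgf1 is left out since no library had over 3 counts.

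The 10 genes spanned a wide range of levels. In RPKM, which is the CPM divided by the exon length in kilobases, the wildtype mean was 51.7 ± 1.67 for Sall4, 34.5 ± 2.01 for Dnmt3a, 17.0 ± 0.502 for Dnmt3b, 0.946 ± 0.176 for L1td1 and 0.497 ± 0.113 for Nr6a1 (SD, n = 4). Nanog followed at 0.411 ± 0.0814, Utf1 at 0.127 ± 0.0464, Pou5f1 at 0.0794 ± 0.0246, Zfp42 at 0.0632 ± 0.0242 and Tdgf1 at 0.00536 ± 0.00663. The wildtype ranges of Nr6a1 and Nanog overlapped, as did those of Utf1 and Pou5f1 and of Pou5f1 and Zfp42. The other neighbours in this order did not overlap, and the widest step lay between Dnmt3b and L1td1. In Cdx2P:Nr6a1 libraries Nr6a1 reached 2.15 and 3.12 RPKM and passed L1td1, at 1.27 and 1.14, but stayed below Dnmt3b. The exon length of Nr6a1 and Dnmt3a joins all annotated transcripts, which lowers their RPKM where a shorter one is used.

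**Figure D5:**
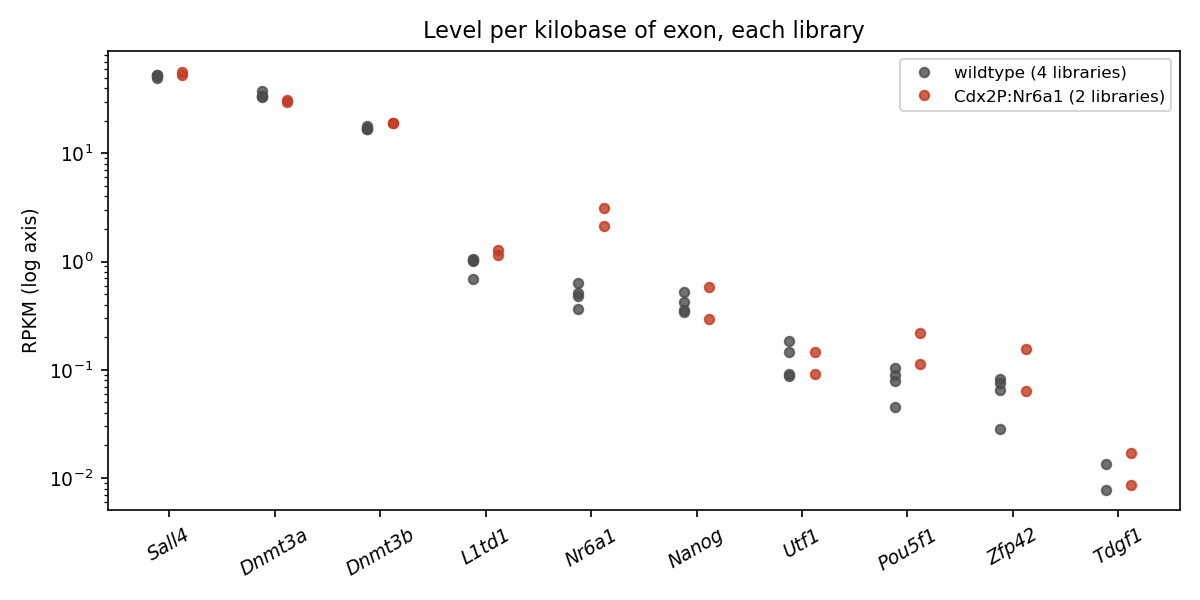
RPKM on a log axis for the 10 genes in order of their wildtype mean, 1 point per library (libraries with 0 counts, for Tdgf1, are not drawn). Nr6a1 moves from about the level of Nanog to above L1td1, from 0.497 to 2.63 RPKM on average, and both Cdx2P:Nr6a1 points of Pou5f1 lie above its wildtype points.

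The wider programme was described with lists around the 10 genes. Of 18 further genes of the naive state, 6 passed the filter and 0 were called. Their summed level was lower without overlap in Cdx2P:Nr6a1, at 49.0 and 55.3 CPM against 63.6 to 70.5 in wildtype. Most of that fall lay in Fgf4 (mean 34.2 CPM in wildtype, 23.1 in Cdx2P:Nr6a1) and Tbx3 (11.9 and 7.28). Of the 6 tested, 3 were higher and 3 lower. Zscan10 (log2 0.29) and Esrrb, under the filter, were higher without overlap, and Klf4 (-0.46) was lower without overlap. Groups did not overlap for 18.5% of all genes tested. Tbx3 and Fgf4, a transcription factor and a growth factor of naive cells that the tailbud also uses, had log2 of -0.71 and -0.57 (adjusted p = 0.0682 and 0.103, edgeR quasi-likelihood test). Tbx3 was called without wildtype replicate 1 (adjusted p = 0.0242), and both were called by the likelihood ratio test and DESeq2. None of 9 corepressor genes, all tested, was called. Ncor1 had a log2 difference of -0.12 (adjusted p = 0.628, edgeR quasi-likelihood test). Of 4 germline genes that Nr6a1 is known to repress, Gdf9, Bmp15, Prm1 and Prm2, 0 passed the filter. Their summed level was higher without overlap in Cdx2P:Nr6a1, at 0.596 and 0.901 CPM against 0.322 to 0.556 in wildtype. It is a sum of few counts, most of them from Gdf9 (mean 0.346 CPM in wildtype, 0.547 in Cdx2P:Nr6a1). Among single genes under the filter with a count, 7.38% lay higher in this way.

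Genes of the later epiblast and of Nodal signalling held the calls nearest to this programme. Sox3, a factor of epiblast and neural progenitors, rose from 5.33 ± 0.729 CPM (SD, n = 4) to 10.6 and 14.8 CPM (log2 1.26, adjusted p = 0.00714). It did not pass without Cdx2P:Nr6a1 replicate 2 (adjusted p = 0.0791, edgeR quasi-likelihood test).

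Lefty1 and Lefty2 encode secreted inhibitors of Nodal and went opposite ways. Lefty1 rose from 3.24 ± 0.335 to 4.98 and 6.22 CPM (log2 0.79, adjusted p = 0.0312, edgeR quasi-likelihood test), and Lefty2 fell from 4.32 ± 0.269 to 2.48 and 2.49 CPM (log2 -0.80, adjusted p = 0.0208). The Lefty1 call was lost without wildtype replicate 2, 3 or 4 or either transgenic library, with adjusted p of 0.0654, 0.0914, 0.0709, 0.0740 and 0.272. The Lefty2 call was lost without wildtype replicate 2 or 3 or either transgenic library, with adjusted p of 0.0569, 0.0521, 0.134 and 0.159. They were the calls among 8 tested of the 15 genes listed for the Nodal pathway, which include Tdgf1. Nodal itself was under the filter.

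Some markers of the tailbud and of other tissues differed between the groups. Among tailbud markers Cdx2 rose (log2 0.35, adjusted p = 0.0340), as did Cyp26a1, which degrades retinoic acid (0.73, 0.0315), with adjusted p from the edgeR quasi-likelihood test. The Cdx2 call was lost without any 1 of the wildtype libraries or Cdx2P:Nr6a1 replicate 1 (adjusted p 0.0526 to 0.204), and the Cyp26a1 call without wildtype replicate 1, 2 or 4 or Cdx2P:Nr6a1 replicate 1 (0.0619 to 0.215). Of 9 tested gut endoderm markers 1, Krt18, rose (0.37, 0.0264), and the 10 listed markers summed to 422 to 540 CPM in wildtype and 542 and 621 in Cdx2P:Nr6a1. That sum is carried by general epithelial genes (Cdh1, Cldn6, Epcam, Krt8 and Krt18). Foxa1, Foxa2, Sox17 and Shh, more particular to endoderm or midline cells, had log2 of -0.052, 0.29, 0.023 and -0.068, and none was called. Spink1, under the filter, ranged from 0.0179 to 1.80 CPM in wildtype and was at 0.113 and 0.388 CPM in Cdx2P:Nr6a1. The Krt18 call was lost without wildtype replicate 2 or 3 or either transgenic library (0.0519 to 0.169). Of 3 tested neural tube markers, Sox1 (1.77, 0.0116) and Sox3 rose. Sox1 passed the filter only through the Cdx2P:Nr6a1 libraries, where it was high (2.93 and 5.10 CPM against 0.902 to 1.41), so its count among the tested markers is no support for the list, and its fit without either of those libraries was not made. The 8 listed markers summed to 30.9 to 39.1 against 44.1 and 57.3 CPM, with Olig2 at 0 counts.

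None of the tested markers of surface ectoderm (7), somite (3), erythroid (6), endothelial (5) or macrophage (4) cells was called. In other fits, Krt5 (adjusted p = 0.0225) and Emcn (0.0371) were called with a replicate block, and Cx3cr1 (6.4e-07) and Hba-x (0.0271) with no filter on low counts (edgeR). Their largest differences were those of Krt5 (log2 0.36) and Grhl3 (0.28), Tcf15 (-0.34) and Meox1 (-0.20), Hba-x (-0.24) and Hbb-y (-0.22), Tek (0.18) and Emcn (0.14), and Cx3cr1 (-0.92) and Csf1r (-0.42). Summed levels overlapped between the groups for each of these 5 lists. The part of gut endoderm and neural cells in the small differences of Dnmt3b, L1td1 and Dnmt3a was not tested.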

How the data were processed

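Tailbud RNA of 4 wildtype and 2 Cdx2P:Nr6a1 embryos was purified, made into stranded mRNA libraries and sequenced as single-end reads. The authors aligned reads with STAR (build mm10 per the labels) and deposited raw counts per gene with exon coordinates and exon length. The counting program and its use of strand are not given in the sources used here. A second deposited table holds the authors' own CPM, fold changes, p-values and FDR for genes they called, and was not used.

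Counts were fitted with edgeR 4.0.16 in R 4.3.3 on the whole table: TMM scaling, the study's filter (over 10 counts and over 2 CPM in 2 libraries), the quasi-likelihood test without covariates and Benjamini-Hochberg adjustment over all genes tested. Intervals of fitted differences use the t distribution of that test. CPM used TMM library sizes, and RPKM the deposited length. Low genes were given by counts with exact Poisson intervals, and their pooled ratio with an exact binomial interval. Intervals and the floor of 3 counts cover counting error only. In simulated counts the test called 185 of 195 changed genes, and 5 unchanged ones, among 12604 tested. Those changes had a median fitted log2 of 1.02 upward and -1.00 downward, and smaller ones were not simulated. Each simulated gene took its dispersion from the fitted trend, so the spread of single genes around that trend was left out. DESeq2 1.42.0 and other settings served as alternatives. Each library is 1 embryo, so p-values measure the spread between embryos. The 10 genes and all lists were chosen with earlier results of these data known. Named from each list were the genes called, or otherwise the 2 with the largest difference, then the 5 genes most like Nr6a1 and its nearest tested neighbours. Genes named for their role or as examples outside this rule were chosen after their values were seen. Some results under this rule are not reported here.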

Additional observations from a re-analysis of the deposited data

Results flagged for a closer look

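In the 4 wildtype libraries, 4 of 27 sets of values checked had 1 library far from the other 3, by the gap to its nearest neighbour as a share of the whole range. Chance gives about 1 in 20. Wildtype replicate 1 was apart for Dnmt3a (gap 0.877 of the range, 624 CPM against 552 to 561) and for L1td1 (0.834, 2.17 against 3.18 to 3.38). Its erythroid level was the highest, though not apart by this measure (gap 0.397 of the range). The part of that level in these values was not tested. Without it Dnmt3a and L1td1 kept their direction and were not called. Wildtype replicate 2 was apart for the summed naive pluripotency genes (0.855, 70.5 CPM against 63.6 to 64.6). Wildtype replicate 3 was apart for the summed germline targets (0.988, 0.322 CPM against 0.554 to 0.556), a sum of few counts.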

How the results depend on the processing

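Nr6a1 was called, and was the only one of the 10 genes called, under all 13 alternatives; its log2 difference lay between 2.11 and 2.65. Sall4, L1td1, Dnmt3a and Dnmt3b kept their direction and stayed above the threshold in each of them. The number of genes called moved more: 401 by the likelihood ratio test, 477 by DESeq2, 876 with no filter on low counts, and 61 to 175 with 1 library left out. The labels give both groups replicates 1 and 2, but the numbers mark no shared litter or day and only 2 pairs exist, so they were taken not to pair the embryos; the deviations of same-numbered libraries correlated at 0.27 and -0.23 over genes. With a replicate block 442 genes were called, and Nr6a1 remained the 1 called of the 10; the call of Lefty1 was lost (adjusted p = 0.0600, edgeR), while Tbx3 (0.00325), Fgf4 (0.0176), Krt5 (0.0225), Slc35g1 (0.0360) and Emcn (0.0371) were called.

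Leaving out 1 library moved the pooled log2 ratio of Nanog from -0.49 to 0.51, of Pou5f1 from 0.49 to 1.46, of Zfp42 from 0.031 to 1.33 and of Utf1 from -0.47 to 0.20. Some differences of genes outside the 10 changed sign, and none was called under the setting that turned it. With 1 library left out, Csf1r ran from -1.09 to 0.010, Emcn from -0.080 to 0.33, Tek from -0.066 to 0.38, Hba-x from -0.44 to 0.11, Hbb-y from -0.50 to 0.019 (0.0074 without Cdx2P:Nr6a1 replicate 1), Tet2 from -0.38 to 0.085 and Nek6 from -0.055 to 0.046. Csf1r was 0.037 with the replicate block and Nek6 0.00096 by library size only. The cause of these shifts was not tested. With 2 transgenic embryos, leaving one out assumes that the other varies like the wildtype, and depth limits what can be said of Pou5f1, Zfp42, Utf1 and Tdgf1.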
